A study of Mus musculus with 18 samples.

Results

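The question addressed here was what 20 µM ginsenoside Rc, a triterpenoid saponin from ginseng, changed in the poly-A transcriptome of muscle cells that were also exposed to dexamethasone, a synthetic glucocorticoid. The cells were myotubes of C2C12, a single mouse myoblast line that fuses into multinucleated fibres when serum is withdrawn, here after 5 days in 2% horse serum. Of the 18 libraries of the series, the 6 analysed in depth were the 3 libraries whose titles name 200 µM dexamethasone with 20 µM ginsenoside Rc, called combined cultures below, and the 3 libraries whose titles name 200 µM dexamethasone without ginsenoside, called dexamethasone cultures. Combined cultures received ginsenoside as a pre-treatment of 12 h and then dexamethasone for 24 h, and dexamethasone cultures received 0.1% DMSO, the solvent, as the pre-treatment and then the same 24 h of dexamethasone. The remaining groups, with 3 libraries each, were dexamethasone with 10 µM ginsenoside Rc, ginsenoside Rc alone at 20 µM or at 10 µM for 36 h, and a DMSO control for 36 h. The labels do not say whether ginsenoside stayed in the medium during dexamethasone. All titles name 1 batch, and nothing states that replicates came from separate cultures; the p-values therefore reflect only how much these libraries vary, which can be technical variation.

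Glucocorticoids enter the cell, bind the glucocorticoid receptor and move it to the nucleus, where it turns on some genes and represses others. In muscle they raise the ubiquitin ligases Fbxo32 (atrogin-1) and Trim63 (MuRF1), which mark muscle proteins for breakdown, and lower growth signals such as Igf1, which is why dexamethasone on myotubes is a common model of muscle wasting. Ginsenosides share a steroid-like ring skeleton that carries sugars.

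The 6 libraries held between 40.2 M and 45.4 M estimated fragments (M as the SI prefix mega). Values are CPM (a gene's counts per mega-count of its library), scaled with TMM, a correction for library composition. Of 48795 listed genes, 15436 were expressed enough to test. All 10 myotube markers were expressed, and their summed level was 21989 to 23417 CPM in combined cultures and 21633 to 23174 CPM in dexamethasone cultures. The 8 markers of undifferentiated myoblasts summed to 2421 to 2463 CPM in combined cultures and 2496 to 2540 CPM in dexamethasone cultures, without overlap. Itga7 made up most of this sum, with a mean of 1646 CPM in combined and 1671 CPM in dexamethasone cultures. Myf5 was nearly level (51.4 and 51.9 CPM) and Vcam1 was higher in combined cultures (22.6 and 20.9 CPM). None of these 8 genes was called. Summed markers of smooth muscle, led by Acta2 and Tagln, were at 1386 to 1668 CPM in combined cultures and 1660 to 1869 CPM in dexamethasone cultures, and those of fibroblasts, led by Col3a1 and Col1a1, at 1968 to 2154 CPM in combined cultures and 2103 to 2563 CPM in dexamethasone cultures. Both sets include genes that myoblasts also express; the fibroblast marker Tcf21 was at 0 in both groups and Thy1 was at 0 in combined cultures. Markers of endothelium summed to at most 1.45 CPM and those of macrophages to at most 2.67 CPM, with Ptprc and Adgre1 at 0. The first principal component over the 9 libraries with dexamethasone, which held 19.8% of the variance, put replicates 1 and 2 of the combined cultures at -17.9 and -17.0 and their replicate 3 at 3.77, against -2.16, 23.0 and 8.21 for dexamethasone replicates 1, 2 and 3, so replicate 3 of the combined cultures lay within the range of the dexamethasone cultures.

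Ginsenoside at 20 µM left Fkbp5 and Nr3c1 near their level in dexamethasone cultures, and Tsc22d3 was slightly higher in its estimate. Fkbp5, a chaperone that the receptor induces, had 434, 447 and 412 CPM in combined cultures, against 438, 434 and 414 CPM in dexamethasone cultures, with 22.9, 24.9 and 23.5 CPM in the control. The change in combined against dexamethasone cultures was 0.01 ± 0.04 on the log2 scale (SE; 95% interval -0.08 to 0.10). Tsc22d3 (GILZ), another direct target, had 625, 612 and 565 CPM in combined cultures and 571, 528 and 572 CPM in dexamethasone cultures (0.11 ± 0.05), and the receptor gene itself, Nr3c1, had 93.2, 99.5 and 88.6 CPM in combined cultures and 93.9, 97.4 and 95.5 CPM in dexamethasone cultures (-0.03 ± 0.05). These ranges overlapped for all 3 genes.

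Against that background, 57 of the 15436 genes tested (0.369%) differed at an adjusted p below 0.05 in edgeR's quasi-likelihood test with Benjamini-Hochberg adjustment, 18 higher (0.117%) and 39 lower (0.253%) in combined cultures. Most changes were small: 36 of the 57 had a log2 fold change smaller than 0.5 in size, and 4 exceeded 1. The rises ran between 0.23 and 0.91 with a median of 0.31, and the falls between -1.09 and -0.25 with a median of -0.40. The 2 groups did not overlap for any of the 57, while 14.9% of all genes tested showed such a separation. The 57 were chosen by a test on these same values, so their separation here and below is a description and no further support. The count depended on single libraries. Without replicate 1, 2 or 3 of the combined cultures it was 9, 6 or 224, and without replicate 1, 2 or 3 of the dexamethasone cultures 89, 14 or 24. Leaving out replicate 2 of ginsenoside alone, which stands apart from its group and is in neither group compared here, gave 341, with all 57 among them; that fit also tested 15618 genes, since the filter and the scaling were set again. Of the 57, 5 passed in all 6 fits that left out a library of either group, among them Lgr6, Col23a1, Gja5 and Tm6sf1. Nabp1 and Slc44a4 passed in 5, Itga6, Myh8 and Padi2 in 4, and Tll1 and Best1 in none. No gene of the 57 changed direction, which groups that do not overlap nearly fix in advance.

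**Figure D1:**
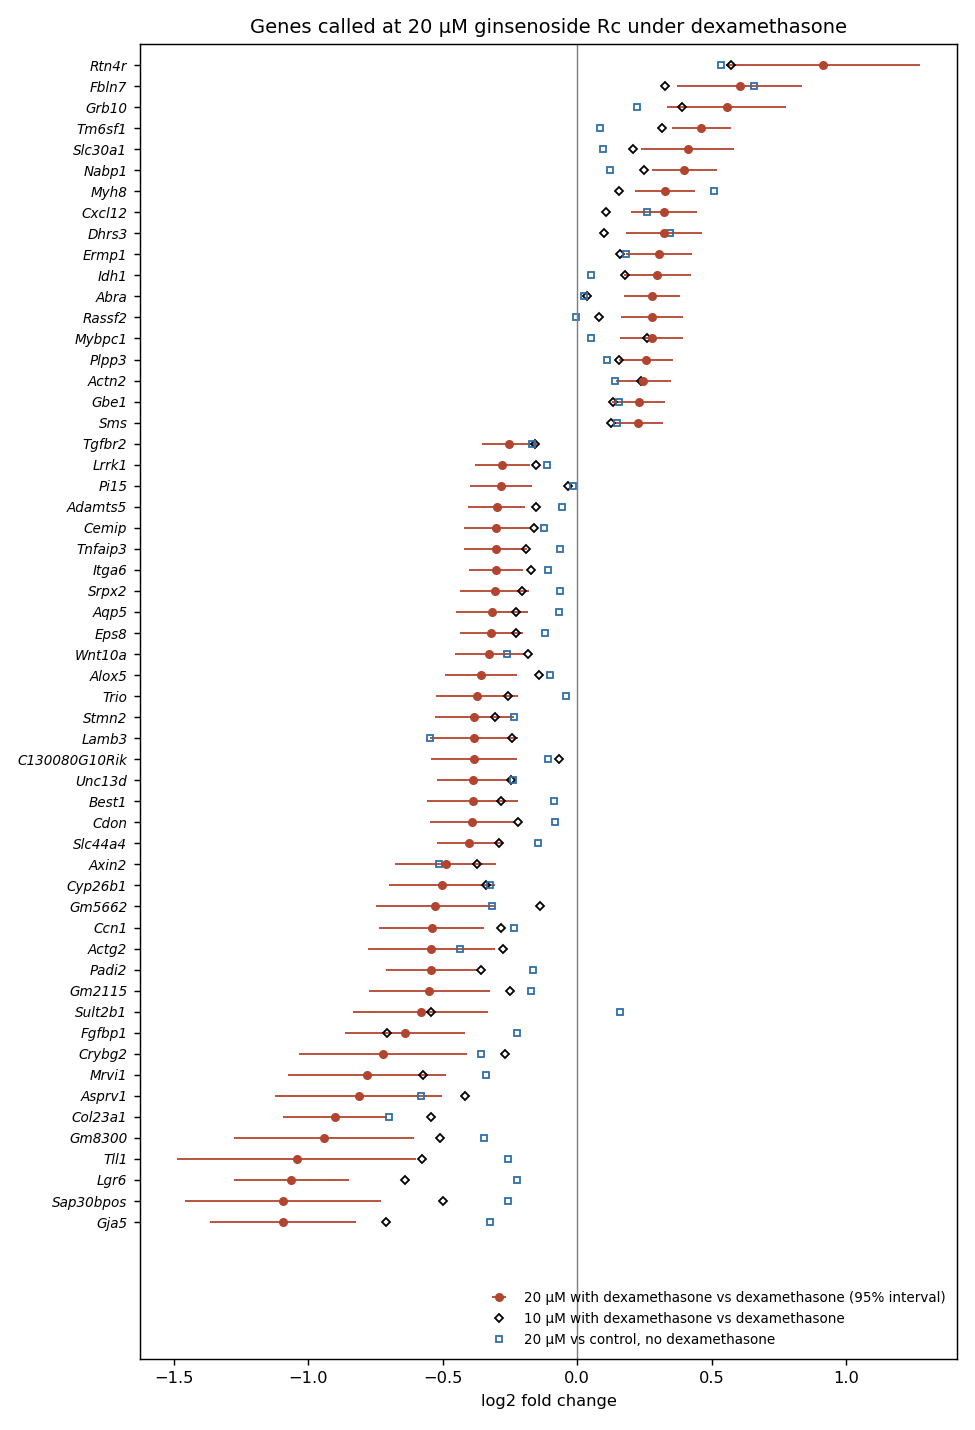
Log2 fold change (x axis) of 56 of the 57 genes that differed between combined and dexamethasone cultures, with 95% intervals (red), beside the values at 10 µM with dexamethasone (black diamonds, same dexamethasone libraries) and at 20 µM without dexamethasone (blue squares, other libraries). The falls reach -1.09, the rises 0.91, and Sult2b1 lies right of 0 without dexamethasone, at 0.16.

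Above a mean log2 CPM of 1, the 3 largest falls were those of Gja5, Lgr6 and Col23a1. Gja5, which encodes the gap junction protein connexin 40, had 9.96, 9.74 and 11.2 CPM in combined cultures, against 24.3, 22.4 and 19.1 CPM in dexamethasone cultures. Lgr6, a receptor for R-spondins, the ligands that strengthen Wnt signalling, had 4.22, 4.15 and 4.16 CPM in combined cultures, against 10.1, 7.92 and 8.16 CPM in dexamethasone cultures. The log2 fold change was -1.09 ± 0.13 for Gja5 (SE, 3 libraries per group; adjusted p = 0.00065) and -1.06 ± 0.10 for Lgr6 (adjusted p = 8.9e-05). The 3 combined libraries were nearly identical for Lgr6, and every dexamethasone library of both genes lay well above them. Col23a1, a transmembrane collagen, had 3.37, 3.12 and 3.73 CPM in combined cultures, against 6.02, 7.02 and 5.97 CPM in dexamethasone cultures (-0.90 ± 0.09, 95% interval -1.09 to -0.71).

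The bases upstream of the 3 genes with the largest falls and the 2 with the largest rises, among those above a mean log2 CPM of 1 with an entry in the RefSeq table, are shown so that the sequence next to each start site can be read beside its change. They are the 250 bases before the RefSeq start in GRCm38.p6, each on the strand of its gene: Gja5 (chr3:97032152-97032401, plus strand), Lgr6 (chr1:135105277-135105526, minus strand), Col23a1 (chr11:51289670-51289919, plus strand), and the risers Fbln7 (chr2:128863682-128863931, plus strand) and Grb10 (chr11:12037421-12037670, minus strand). Capitals mark matches, on either strand, to GC box (GGGCGG), muscle E-box (CAGCTG), TEAD (GGAATG) and TCF-LEF (CTTTGA) letters.
Gja5: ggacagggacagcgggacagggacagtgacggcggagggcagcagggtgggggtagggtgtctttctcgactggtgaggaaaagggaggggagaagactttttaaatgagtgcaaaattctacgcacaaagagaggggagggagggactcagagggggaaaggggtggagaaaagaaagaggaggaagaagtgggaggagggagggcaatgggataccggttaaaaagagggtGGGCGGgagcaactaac
Lgr6: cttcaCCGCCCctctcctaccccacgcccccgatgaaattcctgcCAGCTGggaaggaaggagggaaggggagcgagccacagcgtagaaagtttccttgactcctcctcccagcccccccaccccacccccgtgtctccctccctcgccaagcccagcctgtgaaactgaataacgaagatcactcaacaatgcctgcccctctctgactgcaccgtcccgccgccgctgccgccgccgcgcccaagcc
Col23a1: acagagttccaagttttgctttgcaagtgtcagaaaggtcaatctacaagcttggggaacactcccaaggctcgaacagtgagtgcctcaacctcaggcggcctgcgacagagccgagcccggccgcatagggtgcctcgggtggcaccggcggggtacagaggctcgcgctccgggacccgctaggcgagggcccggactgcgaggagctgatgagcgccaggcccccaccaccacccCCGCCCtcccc
Fbln7: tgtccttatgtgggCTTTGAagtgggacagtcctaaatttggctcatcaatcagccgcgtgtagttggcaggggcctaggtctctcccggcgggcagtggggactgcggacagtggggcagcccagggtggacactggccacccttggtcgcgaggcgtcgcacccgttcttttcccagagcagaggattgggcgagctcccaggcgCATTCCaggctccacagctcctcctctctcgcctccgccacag
Grb10: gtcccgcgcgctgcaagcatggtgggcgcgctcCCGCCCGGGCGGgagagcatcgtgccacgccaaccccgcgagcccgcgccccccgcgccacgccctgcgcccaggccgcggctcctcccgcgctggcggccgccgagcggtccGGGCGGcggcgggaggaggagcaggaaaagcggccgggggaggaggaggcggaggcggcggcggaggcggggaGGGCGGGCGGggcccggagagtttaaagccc
The GC box of Gja5 starts 17 bases before the start site and that of Col23a1 11 bases before it; Lgr6 holds a GC box and a muscle E-box, Fbln7 a TCF-LEF and a TEAD match, and Grb10 held 5 GC boxes, 2 of which overlap in 1 run. GC content was 56.4% for Gja5, 65.2% for Lgr6, 66.0% for Col23a1, 63.2% for Fbln7 and 81.2% for Grb10. Of the 57 genes 43 had an entry in the table. The TEAD letters stood in 18.5% of the 27 lower and 12.5% of the 16 higher genes with an entry, against 10.9% of 11031 tested genes. The TCF-LEF letters were in 3.7% of lower and 25% of higher genes, against 10.6% of all, which is 1 and 4 promoters. AP-1 letters (TGANTCA) were in 7.41% of lower and 0% of higher genes, against 4.53%, and the TATA letters (TATAAA) in 14.8% and 6.25%, against 6.87%. GC boxes were in 59.3% of lower and 43.8% of higher genes, against 58%, and the muscle E-box in 18.5% and 6.25%, against 12.4%. The glucocorticoid receptor core (ACANNNTGT) and the CArG box of serum response factor were in 0% of both sets, against 3.64% and 1.14% of all. These are shares of letters in a short window and say nothing of binding, and sites further away were not searched.

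The next falls were in genes of varied roles. Mrvi1 (IRAG), a partner of the inositol trisphosphate receptor that cGMP-dependent kinase phosphorylates, had 1.93, 1.86 and 1.7 CPM in combined cultures and 2.76, 3.64 and 3.05 CPM in dexamethasone cultures. Asprv1, an aspartic protease known from skin, had 3.52, 3.3 and 2.92 CPM in combined cultures and 6.99, 4.4 and 5.75 CPM in dexamethasone cultures. Cyp26b1, which degrades retinoic acid, had 26.2, 24.4 and 24.5 CPM in combined cultures and 38.9, 35.7 and 31.9 CPM in dexamethasone cultures. All 3 genes were lower in every combined library than in any dexamethasone library. Padi2, which converts arginine to citrulline in proteins, was among the more abundant genes to fall, with 77.0, 76.0 and 88.0 CPM in combined cultures and 104, 130 and 117 CPM in dexamethasone cultures (-0.54 ± 0.08, adjusted p = 0.0054). Fgfbp1, which releases fibroblast growth factors from the matrix, fell to 3.52, 3.48 and 4.41 CPM in combined cultures, against 5.76, 6.01 and 5.97 CPM in dexamethasone cultures, and Sult2b1, a sulfotransferase that acts on cholesterol and related sterols, to 2.2, 1.8 and 2.43 CPM, against 3.29, 3.52 and 2.78 CPM in dexamethasone cultures. Crybg2 changed by -0.72 ± 0.15. Smaller falls included Alox5, the first enzyme of leukotriene synthesis (-0.36), Tnfaip3, a brake on NF-kB (-0.30), the water channel gene Aqp5 (-0.32) and the microtubule-destabilising Stmn2 (-0.38).

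Genes of the extracellular matrix leaned lower. The counts of this paragraph stand beside 0.253% of all genes tested that fell and 0.117% that rose. Of 39 matrix and matricellular genes tested, 2 fell (Ccn1 and Adamts5), 1 rose (Fbln7) and 36 did not pass; 32 lay below 0 and the median change was -0.13, against 0.00067 over all genes tested. Ccn1, a secreted matricellular protein and a standard target of YAP and TEAD, had 138, 122 and 155 CPM in combined cultures and 179, 215 and 211 CPM in dexamethasone cultures. Adamts5, a protease that cleaves aggrecan and versican, had 63.2, 65.1 and 65.7 CPM in combined cultures and 74.5, 84.7 and 79.4 CPM in dexamethasone cultures. Neither gene's groups touched. Of 21 collagen genes Col23a1 fell, and 17 lay below 0 with a median of -0.19; the mean log2 CPM of the 21 was 5.94, 5.98 and 6.07 in combined cultures and 6.03, 6.38 and 6.17 in dexamethasone cultures, which overlap. Col23a1 was called in each of the 6 fits with a library left out, and the collagen median was -0.10 without dexamethasone replicate 2. None of the matrix genes was called without replicate 1 or 2 of the combined cultures or without dexamethasone replicate 2, and only Fbln7 without dexamethasone replicate 3. Without replicate 2 of ginsenoside alone 7 fell and 2 rose (23.1% of the matrix list against 2.18% of all genes in that fit). In the integrin and laminin list 2 of 26 fell: Itga6, the laminin-binding integrin subunit (48.7, 49.5 and 51.9 CPM in combined cultures, 64.7, 60.8 and 59.7 CPM in dexamethasone cultures), and Lamb3, a chain of laminin-332 (13.7, 14.2 and 15.6 CPM, against 18, 19.9 and 18.8 CPM in dexamethasone cultures). The other 24 did not pass, 18 of the 26 lay below 0, the median was -0.05 and 15.4% did not overlap between groups, near the 14.9% of all genes. Neither was called without replicate 1 or 2 of the combined cultures, and only Itga6 without dexamethasone replicate 2 or 3. Without replicate 3 of the combined cultures 3 fell and 1 rose (15.4% of the list against 1.43% of all genes in that fit). Genes outside the lists that act on matrix fell too: Cemip, which drives hyaluronan breakdown (-0.30), and Tll1, a tolloid-type metalloprotease, with 0.415, 0.629 and 0.431 CPM in combined cultures and 1.11, 1.06 and 0.892 CPM in dexamethasone cultures. In bulk RNA, fewer cells of a kind and less RNA per cell cannot be told apart. The ranges of the summed fibroblast and smooth muscle markers given above reached lower in combined cultures while overlapping between groups. The summed markers of undifferentiated myoblasts, most of which is Itga7, were lower there without overlap. The part of such cells in these falls was not tested.

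Single members of the Wnt, YAP and TGF-beta lists fell, none of these lists held a rise, and no member of the actin list passed. Of all genes tested, 0.253% fell and 0.117% rose. In the Wnt list 3 of 41 genes fell. Beside Lgr6 these were Axin2, a feedback inhibitor that Wnt signalling itself induces, with 13.7, 13.4 and 11.5 CPM in combined cultures and 19.7, 16.9 and 17.6 CPM in dexamethasone cultures, and the ligand gene Wnt10a, with 58.7, 59.0 and 64.4 CPM in combined cultures and 83.4, 70.9 and 74.2 CPM in dexamethasone cultures. The other 38 did not pass and the median of the 41 was -0.05, with Lgr6, Axin2 and Wnt10a being a receptor component, a feedback inhibitor and a ligand. Of 32 YAP and TEAD genes Ccn1 alone fell, 24 lay below 0, and 11 had all combined libraries below all dexamethasone libraries, against 7.68% of all genes tested. Of 24 targets of serum response factor and actin signalling none passed, 23 lay below 0 and the median was -0.14; Myl9, a regulatory light chain of smooth muscle and non-muscle myosin, had 46.6, 45.3 and 55.7 CPM in combined cultures and 56.3, 64.9 and 66.4 CPM in dexamethasone cultures (adjusted p = 0.083). The mean log2 CPM of these 24 was 6.10, 6.09 and 6.16 in combined cultures and 6.20, 6.29 and 6.29 in dexamethasone cultures, without overlap. Actg2, the smooth muscle gamma-actin, which stands in no such list here, fell to 11, 10.2 and 12.9 CPM, against 15, 17.1 and 17.5 CPM in dexamethasone cultures. In the TGF-beta, BMP and myostatin list the receptor gene Tgfbr2 fell (195, 194 and 198 CPM in combined cultures, 232, 236 and 232 CPM in dexamethasone cultures), while its partner Tgfbr1 was at 104, 110 and 97.2 CPM in combined cultures and 90.6, 85.4 and 85.3 CPM in dexamethasone cultures, an adjusted p of 0.051 that misses the threshold. Of these lists' calls, only Lgr6 passed without replicate 1 or 2 of the combined cultures or without dexamethasone replicate 3, and Lgr6 and Wnt10a without dexamethasone replicate 2. Without replicate 3 of the combined cultures 4 Wnt genes and 3 actin genes fell, 3 YAP and TEAD genes fell and 1 rose, and 4 TGF-beta genes fell and 1 rose. These were 9.76% of the Wnt list and 12.5% of each other list, against 1.43% of all genes in that fit. Without dexamethasone replicate 1 the calls were Lgr6, Sfrp2, Ccn1, Myl9, Inhba and, as a rise, Tgfbr1. Each list then held between 3.1% and 5% of calls, against 0.570% of all genes. Without replicate 2 of ginsenoside alone 7 Wnt genes and 1 actin gene fell, and each of the other 2 lists had 3 falls and 1 rise. The shares were 17.1% for Wnt, 4.17% for actin, 12.5% for YAP and TEAD and 10% for TGF-beta, against 2.18% of all genes. Cdon, a cell surface co-receptor that promotes myogenic differentiation, fell to 209, 213 and 242 CPM in combined cultures, against 266, 315 and 289 CPM in dexamethasone cultures.

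Among the 18 genes that rose, Fbln7, a fibulin of the matrix, had the largest change of those above a log2 CPM of 1 on average, with 11.9, 13.6 and 12.8 CPM in combined cultures and 6.84, 8.75 and 9.67 CPM in dexamethasone cultures. Grb10, an adaptor that restrains insulin and IGF receptors, had 9.74, 10.8 and 10.6 CPM in combined cultures and 6.5, 7.39 and 7.24 CPM in dexamethasone cultures. It was the only 1 of 30 IGF, insulin and mTOR genes to pass, where 0.369% of all genes tested passed. Of the 6 fits with a library left out, Grb10 passed only in that without replicate 3 of the combined cultures. Tm6sf1 had the smallest adjusted p of the rises (0.00037), with 124, 125 and 119 CPM in combined cultures and 88.4, 87.1 and 92.2 CPM in dexamethasone cultures. Each of the 3 was higher in every combined library. Nabp1, a single-stranded DNA binding protein of the repair machinery, had 93.6, 103 and 95.4 CPM in combined cultures and 70.7, 75 and 76.2 CPM in dexamethasone cultures. Slc30a1, the zinc exporter of the plasma membrane, had 29.4, 32.8 and 25.2 CPM in combined cultures and 23.9, 20.8 and 21.1 CPM in dexamethasone cultures. Cxcl12, a chemokine that guides muscle precursors among other cells, had 63.9, 68.4 and 59.1 CPM in combined cultures and 52.8, 47.3 and 53 CPM in dexamethasone cultures. Rises in metabolic genes were Idh1, the cytosolic isocitrate dehydrogenase that supplies NADPH (0.30), Gbe1, the glycogen branching enzyme (0.23), Sms, spermine synthase (0.23), and Dhrs3, which reduces retinaldehyde to retinol (0.32).

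Of 52 sarcomere genes 3 rose and none fell, where 0.117% of all genes tested rose and 0.253% fell. Myh8, the perinatal myosin heavy chain, had 1767, 1782 and 1769 CPM in combined cultures and 1324, 1475 and 1443 CPM in dexamethasone cultures. Actn2, the actinin of the Z-disc, had 361, 333 and 384 CPM in combined cultures and 293, 309 and 306 CPM in dexamethasone cultures, and Mybpc1, slow myosin-binding protein C, 366, 367 and 392 CPM in combined cultures and 280, 331 and 318 CPM in dexamethasone cultures. The other 49 did not pass, the median of the 52 was 0.03 and 22 lay below 0, and 11 had all combined libraries above all dexamethasone libraries, against 7.23% of all genes tested. The sarcomere count depended on single libraries. None passed without replicate 1 of the combined cultures, only Actn2 without their replicate 2, only Myh8 without dexamethasone replicate 1 or 3, and Myh8 and Mybpc1 without dexamethasone replicate 2. Without replicate 3 of the combined cultures 2 rose (Myh8 and Myh4) and 2 fell (Ankrd1 and Actc1), 7.69% of the list against 1.43% of all genes in that fit. Without replicate 2 of ginsenoside alone 7 rose (13.5% against 2.18%). Myh4, the fast IIb myosin, had 2855, 2809 and 2504 CPM in combined cultures and 2201, 2378 and 2220 CPM in dexamethasone cultures (0.26 ± 0.07, adjusted p = 0.12), which does not overlap but misses the threshold. Abra (STARS), an actin-binding activator of serum response factor signalling, rose to 51.4, 49.2 and 47.3 CPM in combined cultures, against 40.7, 38.6 and 42.7 CPM in dexamethasone cultures. The myogenic regulator Myog, at 558, 528 and 677 CPM in combined cultures and 656, 623 and 715 CPM in dexamethasone cultures, overlapped between groups (-0.18 ± 0.09).

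**Figure D2:**
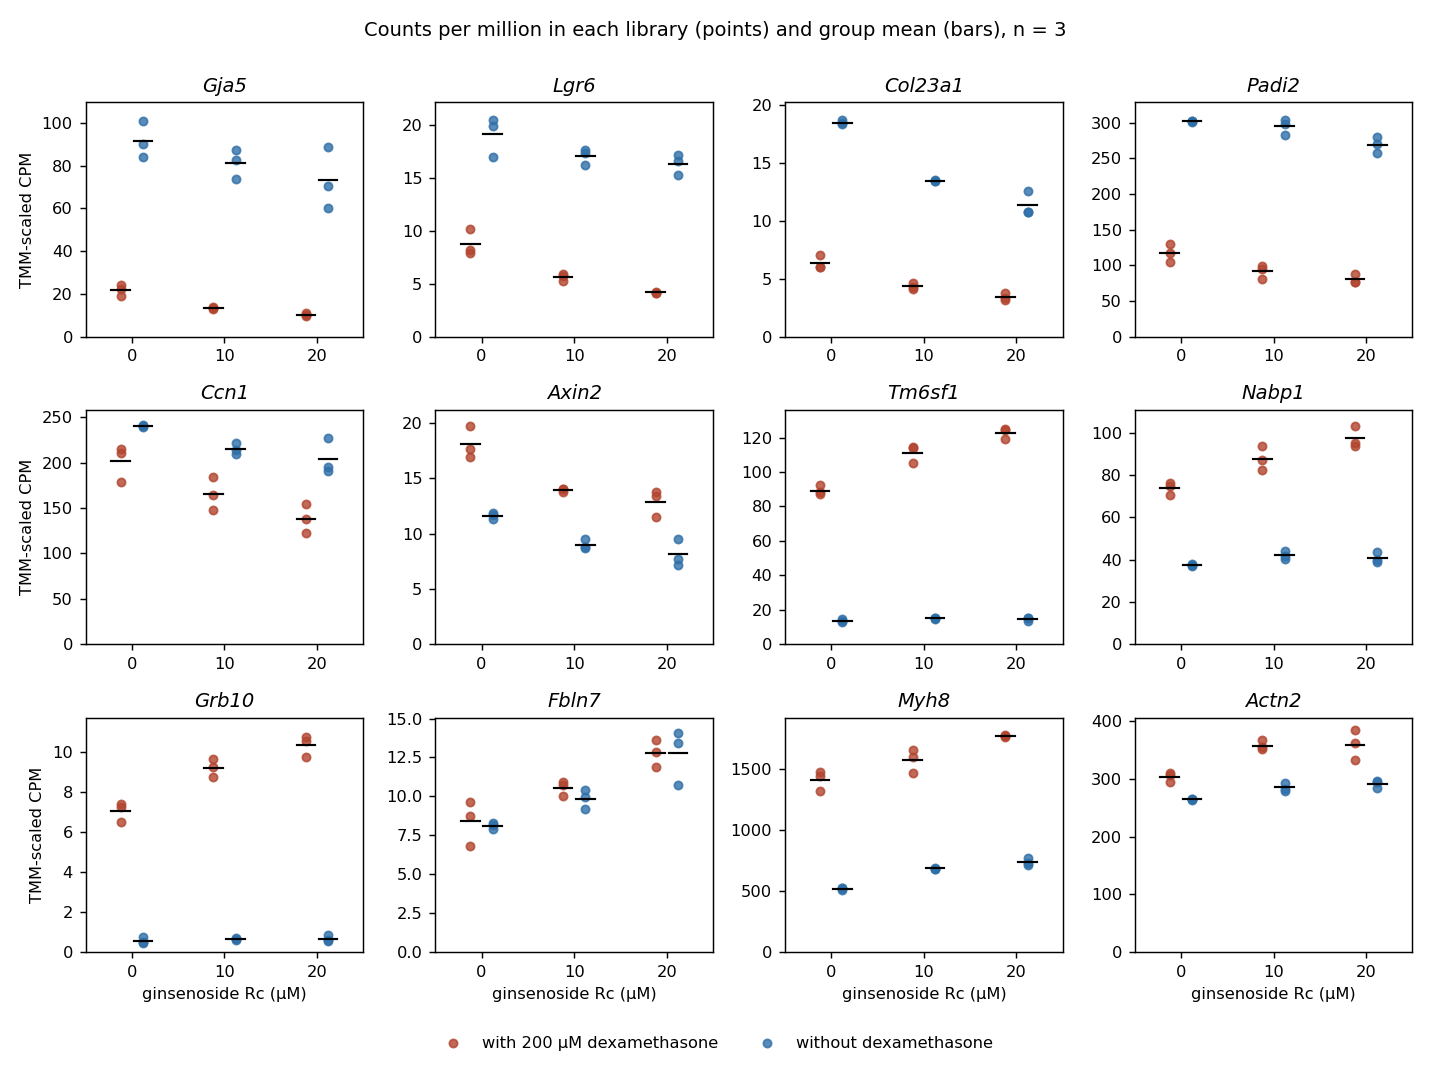
TMM-scaled CPM (y axis, from 0) of 12 of the 57 genes in every library at 0, 10 and 20 µM ginsenoside Rc (x axis), with 200 µM dexamethasone (red) and without it (blue); black bars are means of 3 libraries. Lgr6 lies between 4.15 and 4.22 CPM at 20 µM with dexamethasone, and Grb10 stays below 1 CPM in all libraries without dexamethasone.

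No gene passed in the lists of glucocorticoid receptor targets and of atrophy genes, nor in any of the 6 fits that left out a library of the groups compared. Without replicate 2 of ginsenoside alone, 3 of the 29 receptor targets fell (Cdkn1a, Angptl4 and Dusp1, 10.3% against 2.18% of all genes in that fit). DESeq2 called Angptl4 (3.45% against 1.67%), and the atrophy list held no call in either. Of the 29 receptor targets 16 lay above and 13 below 0, with a median of 0.01, and the smallest adjusted p was 0.12 for Angptl4, a lipoprotein lipase inhibitor (11.9, 12.5 and 11.4 CPM in combined cultures, 14.9, 13.4 and 15.5 CPM in dexamethasone cultures). Of 24 atrophy and ubiquitin ligase genes 19 lay above 0, with a median of 0.06. In 6 of them (25%) all combined libraries were above all dexamethasone libraries, against 7.23% of all genes tested, and in 0 the reverse held. Fbxo32 had 363, 354 and 252 CPM in combined cultures and 327, 282 and 276 CPM in dexamethasone cultures (0.13 ± 0.11, 95% interval -0.10 to 0.36). Trim63 had 96.9, 93.8 and 75.2 CPM in combined cultures and 86.4, 72.7 and 72.0 CPM in dexamethasone cultures (0.20 ± 0.13, 95% interval -0.08 to 0.49). For both ligases replicates 1 and 2 of the combined cultures were above all dexamethasone libraries while replicate 3 was below them for Fbxo32 and within their range for Trim63. Igf1 had 6.32, 5.99 and 10.1 CPM in combined cultures and 6.82, 13.0 and 9.64 CPM in dexamethasone cultures (-0.40 ± 0.21), against 113, 106 and 113 CPM in the control. Klf15, a receptor-induced factor (0.15 ± 0.08), Foxo1, which drives the ligases (-0.07 ± 0.09), and Ppargc1a, a coactivator of mitochondrial genes (0.05 ± 0.11), did not pass either. Klf15 did not overlap between groups. Of the 29 receptor targets 17.2% did not overlap, near the 14.9% of all genes tested.

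Lipid synthesis and cell cycle genes leaned one way as lists, but the libraries of the groups overlapped. All 26 sterol biosynthesis genes lay above 0 with a median of 0.45, and none passed. Insig1, which holds the sterol sensor in the endoplasmic reticulum, had 355, 401 and 260 CPM in combined cultures and 266, 141 and 174 CPM in dexamethasone cultures (0.81 ± 0.21, adjusted p = 0.12). Hmgcs1, an early enzyme of the mevalonate pathway, had 675, 723 and 561 CPM in combined cultures and 584, 316 and 443 CPM in dexamethasone cultures. In both genes dexamethasone replicate 1 reached the range of the combined cultures and dexamethasone replicate 2 was the lowest of the 6. The mean log2 CPM of the 26 genes was 7.22, 7.29 and 6.95 in combined cultures and 7.07, 6.33 and 6.69 in dexamethasone cultures. The list's median was 0.26 with dexamethasone replicate 2 left out and 0.67 with dexamethasone replicate 1 left out. In the latter fit 17 of the 26 passed (65.4% against 0.570% of all genes). Insig1 alone passed without replicate 3 of the combined cultures (3.85% against 1.43%), and 5 genes by DESeq2 (19.2% against 1.67%). Without dexamethasone, at 20 µM, the list's median was 0.01. Of 17 fatty acid synthesis genes 15 lay above 0 with a median of 0.28 and none passed; their mean log2 CPM was 6.86, 6.92 and 6.68 in combined cultures and 6.70, 6.44 and 6.58 in dexamethasone cultures. In that list 7 of 18 rose without replicate 3 of the combined cultures (38.9% against 1.43% of all genes in that fit) and 3 of 17 without dexamethasone replicate 1 (17.6% against 0.570%). Without replicate 2 of ginsenoside alone 3 of 18 rose (16.7% against 2.18%), and by DESeq2 5 of 17 (29.4% against 1.67%). Cell cycle genes leaned lower: 35 of 38 lay below 0 with a median of -0.32, none passed, and the mean log2 CPM was 1.85, 1.83 and 2.40 in combined cultures and 2.04, 2.54 and 2.29 in dexamethasone cultures. Their median was -0.59 when replicate 3 of the combined cultures was left out and -0.09 when dexamethasone replicate 2 was. Rrm2 and Cenpf fell in the fit without replicate 3 of the combined cultures (5.26% against 1.43% of all genes) and by DESeq2 (5.26% against 1.67%). Without replicate 2 of ginsenoside alone 1 gene fell and 1 rose (5.26% against 2.18%). Of nuclear oxidative phosphorylation genes 48 of 52 lay above 0 with a median of 0.04, and of cytosolic ribosomal protein genes 45 of 46 below 0 with a median of -0.07; none of either passed.

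**Figure D3:**
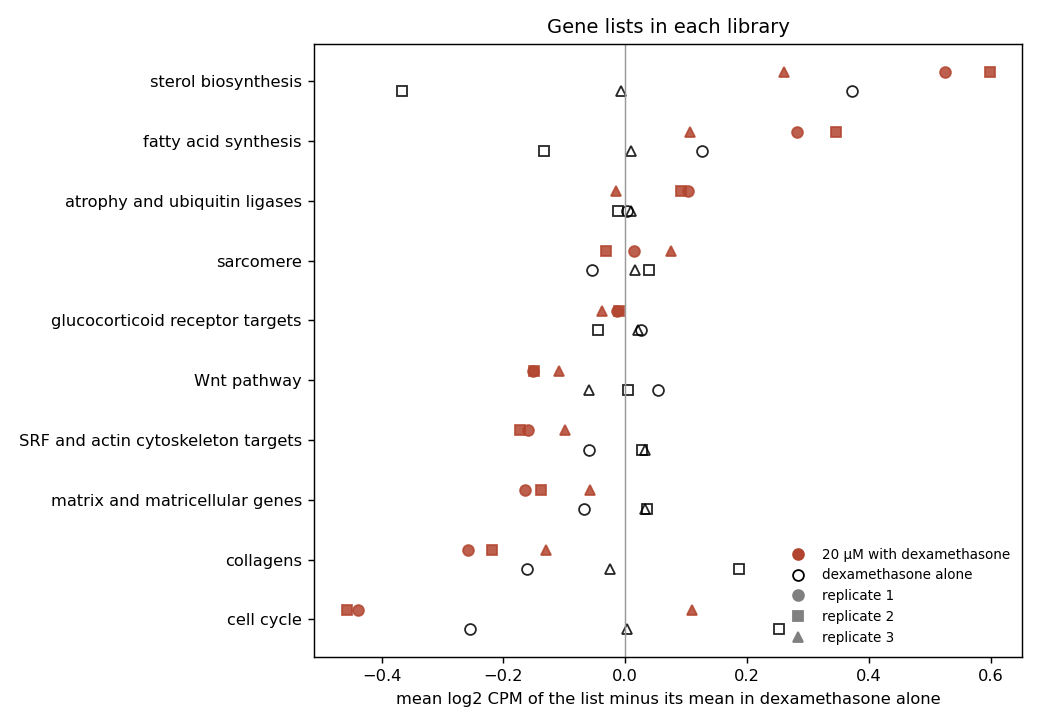
Mean log2 CPM of 10 gene lists (rows) in each library of the combined cultures (red, filled) and of the dexamethasone cultures (black, open), relative to the mean of the dexamethasone cultures (x axis, log2 units); the marker shape gives the replicate. Sterol and cell cycle genes spread most between libraries of the same group and their groups overlap, while the groups of the actin cytoskeleton and Wnt lists do not overlap.

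The dose comparison asked whether 20 µM differed from 10 µM under dexamethasone. The comparison of 20 with 10 µM called no gene (0% of those tested; 2.83% had an unadjusted p below 0.05, DESeq2 called Abra and limma voom called Abra and Pi15). At 10 µM against the same dexamethasone libraries 4 genes were called (0.0259%): Lgr6, Col23a1, Fgfbp1 and Tm6sf1. Because both doses are set against the same 3 dexamethasone libraries, their values are given side by side only. Lgr6 had a log2 change of -1.06 at 20 µM and -0.64 at 10 µM, Col23a1 -0.90 and -0.54, Gja5 -1.09 and -0.71, Fgfbp1 -0.64 and -0.71, and Tm6sf1 0.46 and 0.32. Over the genes called at 20 µM, the median at 10 µM was -0.27 for the 39 lower and 0.17 for the 18 higher ones. The direct difference between the doses was -0.42 for Lgr6 (95% interval -0.64 to -0.20, adjusted p = 1), -0.38 for Gja5 (-0.66 to -0.10) and 0.07 for Fgfbp1 (-0.17 to 0.30). Abra had 51.4, 49.2 and 47.3 CPM at 20 µM and 43.1, 41.7 and 40.3 CPM at 10 µM, and Pi15, a peptidase inhibitor, 93.6, 93.7 and 95.1 CPM at 20 µM and 112, 115 and 109 CPM at 10 µM. In these 2 genes the 10 µM libraries lay with or near the dexamethasone cultures, at a log2 change of 0.04 and -0.03 against them.

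The same dose without dexamethasone gives a comparison that shares no library with the one above. Ginsenoside was given for 36 h there, so the time of exposure may differ from that of combined cultures as well. In this comparison 16 genes were called (0.104%), 14 lower (0.0907%) and 2 higher (0.0130%). Of the 39 genes lower in combined cultures 38 were also below 0 without dexamethasone, with a median of -0.22, and 17 of the 18 higher ones were above 0, with a median of 0.14; over all genes 47.2% lay above 0. The exceptions were Sult2b1 (0.16) and Rassf2, a tumour suppressor of the RAS-association family (-0.0031). All ginsenoside libraries stood below all control libraries for 21 of the 39, against 7.04% of genes tested, and above them for 13 of the 18, against 4.68%. Across the 57 genes, which were chosen for a large change on 1 axis, Pearson's r of the 2 log2 changes was 0.82, and across all 15436 it was 0.18 (Spearman's rank correlation 0.14), as a description over genes that are not independent replicates. Both correlations include replicate 2 of ginsenoside alone, which stands apart from its group. Col23a1, Lamb3, Axin2, Myh8 and Fbln7 were called in both, which is 8.77% of the 57 and 31.2% of the 16.

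These 5 genes had values as follows. Col23a1 had 10.8, 12.6 and 10.7 CPM with ginsenoside alone and 18.6, 18.3 and 18.4 CPM in the control. Axin2 had 7.19, 9.54 and 7.7 CPM with ginsenoside alone and 11.3, 11.7 and 11.8 CPM in the control, and Lamb3 38.5, 30.7 and 36.9 CPM with ginsenoside alone and 50.7, 53.1 and 51.4 CPM in the control. The control libraries were tight for these genes and all above the ginsenoside libraries. Myh8 had 717, 729 and 774 CPM with ginsenoside alone and 511, 525 and 526 CPM in the control, and Fbln7 13.4, 10.8 and 14.1 CPM with ginsenoside alone and 8.19, 7.88 and 8.29 CPM in the control. The other 11 genes called without dexamethasone were also lower in combined cultures than in dexamethasone cultures in their estimate, between -0.39 and -0.03, and did not pass. Of the 16 genes, Edn1, the vasoactive peptide endothelin-1, had the largest fall without dexamethasone, with 1.61, 1.89 and 1.34 CPM with ginsenoside alone and 3.6, 3.33 and 3.02 CPM in the control, and 17.4, 18.2 and 15.4 CPM in combined cultures and 21.7, 18.9 and 20.1 CPM in dexamethasone cultures.

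**Figure D4:**
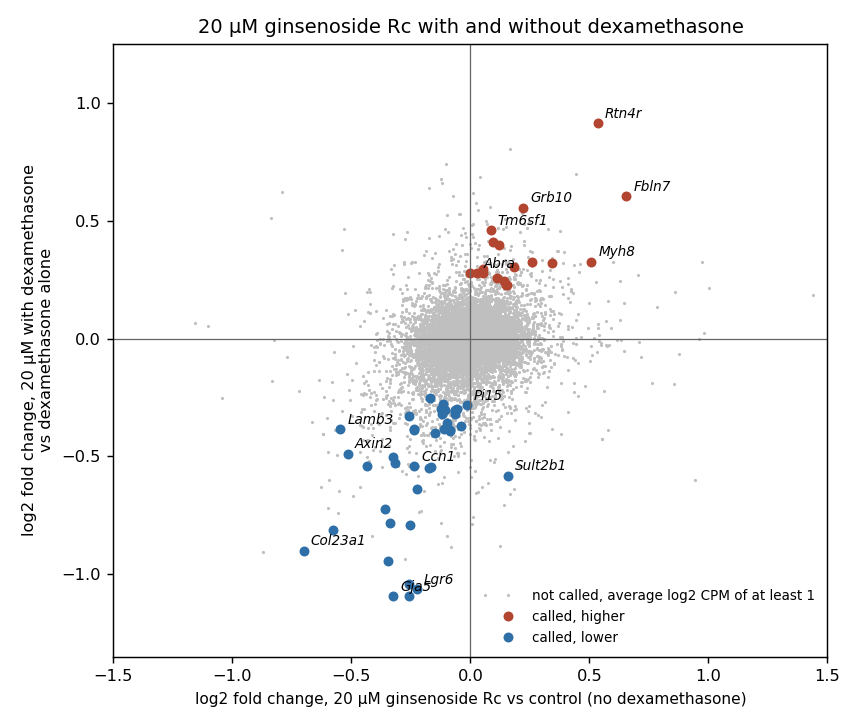
Log2 fold change at 20 µM ginsenoside Rc with dexamethasone (y axis) against that without dexamethasone (x axis), which share no library; called genes are red (higher) or blue (lower) and grey points are other genes with a mean log2 CPM of 1 or more. Of the blue points 38 of 39 lie left of 0 and of the red points 17 of 18 right of 0, with Sult2b1 the blue point at 0.16.

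The interaction tested whether the change at 20 µM differed with and without dexamethasone. Ginsenoside alone was given for 36 h, and its presence after the 12 h pre-treatment of combined cultures is not stated. Dexamethasone and a difference in ginsenoside exposure therefore cannot be told apart here. No gene passed (0% of those tested, 5.29% at an unadjusted p below 0.05, and DESeq2 called Lgr6). The smallest adjusted p was that of Lgr6 (0.12), with a difference of -0.84 (95% interval -1.12 to -0.56) between a change of -1.06 with and of -0.23 without dexamethasone. Lgr6 had 15.3, 16.6 and 17.1 CPM with ginsenoside alone and 20.5, 16.9 and 19.9 CPM in the control, ranges that overlap. The difference was -0.77 for Gja5 (-1.13 to -0.41), -0.20 for Col23a1 (-0.45 to 0.05) and 0.03 for Axin2 (-0.25 to 0.30). Without replicate 2 of ginsenoside alone, Lgr6 and Vgll2, a TEAD cofactor of skeletal muscle, passed.

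The direction of the 57 changes was then set beside what dexamethasone did in the libraries with 10 µM ginsenoside, against 10 µM alone, which also share no library with the main comparison; this comparison was chosen after the values were seen. Any change that 10 µM ginsenoside made only under dexamethasone is part of that comparison, so its sizes and the shared directions below include it. Against dexamethasone cultures, 10 µM changed the 39 lower genes by a median of -0.27 and the 18 higher ones by 0.17. Dexamethasone at 10 µM changed 44.2% of genes, 21.1% up and 23.0% down. Of the 39 genes lower in combined cultures 32 were lowered by dexamethasone, 5 raised and 2 not called, and of the 18 higher ones 14 were raised, 3 lowered and 1 not called. Gja5 fell by 2.60 on the log2 scale in that comparison, Col23a1 by 1.62 and Lgr6 by 1.60, and Grb10 rose by 3.83 and Tm6sf1 by 2.88. For these genes 20 µM ginsenoside moved the level further from the control and not back towards it: Gja5 averaged 10.3 CPM in combined cultures and 21.9 CPM in dexamethasone cultures, with 101, 90.1 and 83.8 CPM in the control, and Tm6sf1 averaged 123 CPM in combined cultures and 89.2 CPM in dexamethasone cultures, with 13.2, 14.5 and 13.7 CPM in the control. The genes that went against the dexamethasone direction were fewer. Axin2 (0.64 with dexamethasone), Pi15 (1.16), Best1 (0.80), Gm5662 (1.64) and Gm8300 (3.56) were raised by it and lower with ginsenoside, and Rtn4r, the Nogo receptor (-1.14), Cxcl12 (-0.49) and Abra (-0.16) were lowered by it and higher with ginsenoside.

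The same lean was seen beyond the 57. Of 569 genes raised more than 1 log2 unit by dexamethasone at 10 µM, 65.4% were above 0 in combined against dexamethasone cultures, with a median of 0.07, and of 1029 genes lowered by more than 1 log2 unit, 20.3% were above 0, with a median of -0.22, where 50.3% of all genes tested were above 0. Without dexamethasone the shares above 0 in these sets were 53.1% and 33.0%. Across all 15436 genes the Pearson correlation of the 2 log2 changes was 0.27 (Spearman 0.38). With each of the 6 libraries left out in turn it was between 0.22 and 0.32. In those cases the ginsenoside change was a difference of mean log2 CPM, with no new fit. Without dexamethasone the Pearson correlation of the fitted changes was 0.09. The values without dexamethasone include replicate 2 of ginsenoside alone, which stands apart from its group. It had 2.79% mitochondrial and 1.82% ribosomal protein counts, against 1.57% and 2.60% in replicate 1 and 1.27% and 2.59% in replicate 3. These values were not computed without it. Both doses carry ginsenoside, so a change that it makes only under dexamethasone at either dose enters both axes, and its share of the correlation was not tested.

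**Figure D5:**
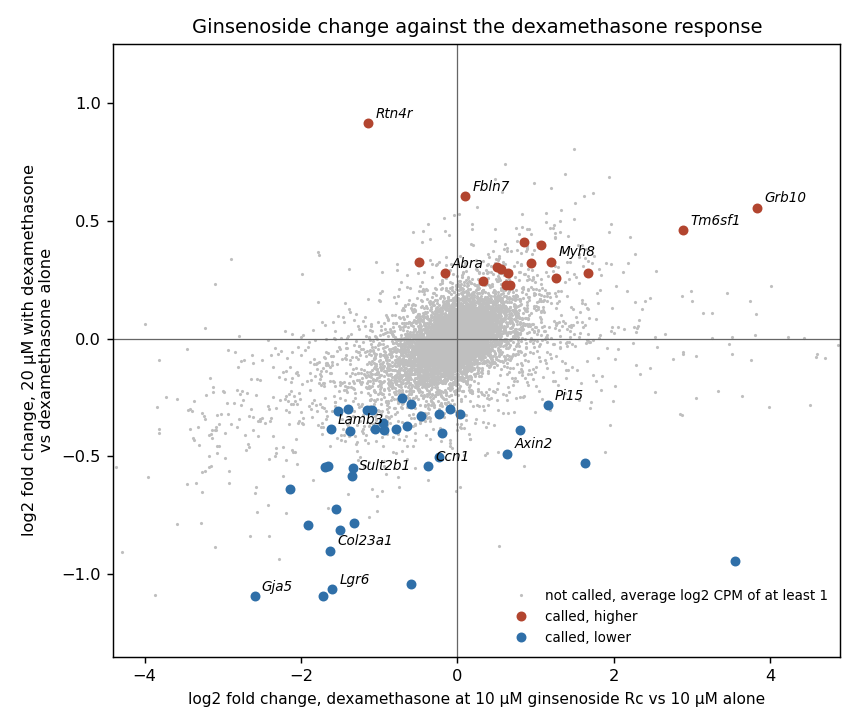
Log2 fold change of combined against dexamethasone cultures (y axis) and of dexamethasone at 10 µM ginsenoside Rc against 10 µM alone (x axis), with colours as in the plot of changes with and without dexamethasone. Of the blue points 32 of 39 were also lowered by dexamethasone and of the red points 14 of 18 also raised, while Axin2, Pi15 and Rtn4r lie in the other quadrants; grey genes beyond the axis limits are not drawn.

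Several of the 57 values are less certain because reads can be shared between genes. Of the 100-base windows of Gm5662 58.4% also occurred in transcripts of other genes, 33.6% of those of C130080G10Rik, 16.4% of Sms, 11.6% of Gja5, 10.8% of Gm8300, 3.71% of Itga6 and 3.38% of Myh8, whose windows are shared with other myosin heavy chains. Sap30bpos lies opposite Sap30bp, which changed by -0.09 (adjusted p = 0.70), and Lamb3 overlaps Hsd11b1 on the other strand, which changed by -0.25 (adjusted p = 0.24). Tm6sf1 shares its locus with Gm45867 on the same strand (0.99, adjusted p = 0.13). The kit keeps strand but the setting used for counting is not given in any source read here, so reads of facing genes may be mixed. Sap30bpos, Tll1, Gm8300 and Rtn4r had an average log2 CPM below 1, where a fold change rests on fewer counts.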

How the data were processed

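Per the labels' protocols, poly-A RNA went into a directional kit and was read as pairs of 100 bp. STAR 2.7.3a, RSEM 1.3.3, Trim Galore 0.6.5, FastQC 0.11.9 and the build GRCm38 (mm10) appear in the submitters' processing notes; which annotation, filters and strand setting were used is not given in the sources. The expected counts, in 1 table as the authors deposited it, are estimated fragments per gene, and 9.27% of the values were not whole (tolerance 1e-06). Counts were rounded; 48349 of 48795 IDs were named from GENCODE mouse release 21, and the other 446, with 0.0385% of counts, were kept.

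Genes were filtered with filterByExpr and scaled with TMM, and edgeR 4.0.16 (R 4.3.3, robust quasi-likelihood) fitted the 18 libraries with a mean for each group, Benjamini-Hochberg adjusted over 15436 genes. Each standard error is the log2 change over the root of its F statistic. CPM are TMM scaled; log2 CPM use a prior count of 2. Library totals of the series ran between 32.4 M and 45.4 M (mega) fragments, which sets counting error only. The test was run on simulated data before use.

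The 6 comparisons were the combined treatment against dexamethasone alone and against 10 µM with dexamethasone, 10 µM with dexamethasone against dexamethasone alone, 20 µM against control, the interaction, and dexamethasone at 10 µM. The rule for named genes took all genes that passed (per-library values for the 10 largest rises, the 16 largest falls above a mean log2 CPM of 1, and passing list members), the 2 members of each list with the smallest p, and Nr3c1, Fkbp5, Tsc22d3, Klf15, Fbxo32, Trim63, Foxo1, Igf1, Myog, Ppargc1a and Myh4, and the 3 smallest adjusted p of the interaction; Cdon, Mybpc1, Abra, Pi15 and Vgll2 were given values per library or named after their values were seen, as were genes named only for a fit with a library left out. Members, 38 gene lists and 8 marker lists were chosen with earlier results of these data known. Alternatives were other scalings, no filter, DESeq2 1.42.0, limma 3.58.1 voom with quality weights, a 1.2-fold threshold, only the groups compared, a replicate block, and leaving out libraries. Upstream sequences are from RefSeq (GRCm38.p6). The values of 1 gene that passed are not reported here.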

Additional observations from a re-analysis of the deposited data

How the results depend on the processing

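For the combined treatment against dexamethasone alone, 57 genes were called, with 61 under median-ratio size factors, 66 without composition scaling, 77 with only the groups compared, 95 without the count filter, 258 by DESeq2 and 957 by limma voom with quality weights; the 57 were all among the calls of DESeq2 and voom, and 40 were among the 77. Against a 1.2-fold change 4 passed, all lower. With a library of the groups compared left out the count ran between 6 and 224, and it was 341 without replicate 2 of 20 µM alone. In 855 pairs of a called gene and an alternative the direction held in 855. That was nearly fixed in advance, since the groups of all 57 genes do not overlap and the alternatives reuse the same libraries. Of 532 list medians under the alternatives, 10 moved by more than their spread.

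The replicate numbers showed little pairing between the groups compared. Deviations of same-numbered libraries correlated at 0.035, -0.016 and 0.055 between combined and dexamethasone cultures, and those of different-numbered ones at -0.127 to 0.099. Same-numbered libraries of 10 µM with dexamethasone correlated at 0.069, 0.045 and 0.119 with combined and at 0.082, 0.048 and 0.032 with dexamethasone cultures. Different-numbered ones ran at -0.113 to 0.050 and at -0.065 to 0.018. Weak pairing is therefore possible. With a replicate block 62 genes were called, 51 of them shared with the 57; the block called 1 gene at 10 µM with dexamethasone, 12 at 20 µM alone, and 0 for the dose comparison and the interaction.

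For 10 µM with dexamethasone (4 calls) the count was 0 against a 1.2-fold change, 1 with only the groups compared, 17 by DESeq2, 56 by voom, 15 without replicate 2 of 20 µM alone and 0 to 1 with 1 of its libraries left out. For 20 µM alone (16 calls) it was 28 without the filter, 2 against a 1.2-fold change, 0 with only the groups compared, 107 by DESeq2, 147 by voom and 5 to 44 with a library left out. The dose comparison (0 calls) gave 1 by DESeq2 and 2 by voom, and the interaction (0 calls) 1 without the filter, 1 by DESeq2 and 2 without replicate 2 of 20 µM alone. Dexamethasone at 10 µM (6820 calls) gave 3517 against a 1.2-fold change. No composition scaling split its calls into 2449 higher and 4374 lower, against 3264 and 3556. The cause of these shifts was not tested.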
